A study of Homo sapiens with 44 samples.

Results

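Small heat shock proteins were followed through 90 days of cardiac differentiation, together with BAG3, the cochaperone that binds several of them. The 8 genes are HSPB1, HSPB2, HSPB3, HSPB6, HSPB7, HSPB8, CRYAB and BAG3. They were picked by name, by matching symbols to the 60499 Ensembl gene identifiers of the deposited tables through GENCODE, and all 8 were found. They were proposed with their levels in these samples in view, by the day on which they came on. Their levels are therefore given as a description. Fold changes and calls for them come from a fit over all genes and are listed without p-values, and nothing is read from those calls.

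The cells were the human embryonic stem cell line H1, an established line, and 1 culture well gave 1 bulk RNA-seq library. One group of 3 wells was kept pluripotent on the laminin LN-521. The other 11 groups grew on LN-521 plus LN-221 and were taken at days 0, 1, 3, 5, 7, 9, 11, 14, 20, 30 and 90. Days 5, 7, 9 and 11 have 5 wells each and the others 3. Day 0 wells were in Nutristem medium. Wells of days 1 and 3 were in RPMI 1640 with B27 lacking insulin and with CHIR99021, an inhibitor of the kinase GSK3. Wells of day 5 had IWP2, an inhibitor of Wnt secretion, in place of CHIR99021, and those of days 7 and 9 had insulin-free B27 alone. From day 11 the supplement was CTS B-27. For day 11 the series text counts 3 wells and the labels 5, of which none was left out. There is no untreated series at the later times, so day, medium and small molecules cannot be told apart. The labels do not say whether the wells of a time came from separate differentiations, and the spread between them may be partly technical.

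Small heat shock proteins are ATP-independent chaperones built around an alpha-crystallin domain. They hold unfolding proteins in a soluble state until HSP70 machines refold them or degradation pathways remove them. HSPB1 and CRYAB are found in many tissues, while HSPB2, HSPB3, HSPB6 and HSPB7 are best known from heart and skeletal muscle, where these chaperones act at the Z-disc and on intermediate filaments. BAG3 joins HSPB8 to HSP70 and sends damaged filamin to autophagy, and variants in CRYAB, HSPB8 and BAG3 are known causes of muscle disease.

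Promoter sequence was available from RefSeq (GRCh38.p14) for 6 of the 8 genes, all but HSPB2 and CRYAB. The 250 bases before each start were searched on both strands for the heat shock elements GAANNTTC and TTCNNGAA, the TATA box TATAAA, the E-box CANNTG, and the MEF2 and CArG consensus motifs. The following stretches set HSPB7 and HSPB3, with the steepest courses in these data, beside HSPB1, HSPB8 and BAG3, and leave out HSPB6. They are written 5′ to 3′ on the gene's strand, with matches to these motifs other than the E-box in capitals. They are cut where a GENCODE exon begins, or kept to 30 bases around 1 match where an exon covers the window.
HSPB7, chr1:16018106-16018135, minus strand: atggagaggcCTAAATTTAGctagtagaca
HSPB3, chr5:54455449-54455600, plus strand: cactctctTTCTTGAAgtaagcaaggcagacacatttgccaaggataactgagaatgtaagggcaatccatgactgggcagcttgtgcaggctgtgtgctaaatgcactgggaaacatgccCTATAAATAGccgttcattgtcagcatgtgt
HSPB1, chr7:76302423-76302543, plus strand: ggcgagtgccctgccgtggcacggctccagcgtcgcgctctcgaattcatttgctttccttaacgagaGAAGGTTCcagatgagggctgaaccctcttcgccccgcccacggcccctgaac
HSPB8, chr12:119178832-119178861, plus strand: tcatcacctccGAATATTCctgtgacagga
BAG3, chr10:119651130-119651369, plus strand: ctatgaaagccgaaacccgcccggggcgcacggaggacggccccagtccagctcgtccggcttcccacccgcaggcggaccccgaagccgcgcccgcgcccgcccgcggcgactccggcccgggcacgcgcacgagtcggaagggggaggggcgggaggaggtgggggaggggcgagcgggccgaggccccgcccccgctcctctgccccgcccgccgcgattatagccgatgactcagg
Positions are counted from the RefSeq start. The capitals in HSPB7 are a MEF2 consensus, 82 to 73 bases before that start. Those in HSPB3 are a TTCNNGAA element and a MEF2 consensus 129 to 120 bases before the start, which overlaps a TATAAA. HSPB1 and HSPB8 each hold 1 GAANNTTC element, at -182 to -175 and -88 to -81. No letter of the BAG3 window matched any of the 6 motifs.

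A MEF2 consensus was in 2 of the 6 windows, HSPB3 and HSPB7, and in 2.80% of the 35114 RefSeq promoters searched the same way. GAANNTTC was in 3 (HSPB1, HSPB6 and HSPB8) against 5.78% of all, and TTCNNGAA in 2 (HSPB3 and HSPB6) against 6.62%. TATAAA was in 3 (HSPB3, HSPB6 and HSPB7) against 10.7%. The E-box was in 4 against 61.8%, and the CArG box in 0 against 1.16%. The BAG3 window was the richest in G and C, at 78.0%, and that of HSPB3 the poorest, at 46.0%. Such matches describe the letters of these windows only.

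Libraries held between 6937097 and 33497996 counts. RNA integrity numbers, a score from 1 to 10 in which 10 is intact RNA, ran from 7.4 to 10.0, and all wells below 8.0 were at days 14 and 30. A count of 0 allows up to 3 counts, which is 0.0919 to 0.410 CPM depending on the library. CPM are counts per 1e6 counts after TMM scaling, and they compare 1 gene between wells. TPM are transcripts per 1e6 transcripts, which are per length and are used here to compare genes. The summed level of 7 cardiomyocyte markers was 48.2 to 95.6 CPM in the pluripotent wells, 5567 to 9862 CPM at day 7 and 17243 to 54422 CPM at day 90. Of the skeletal muscle markers, MYOD1, MYOG and MYF5 were at or under 3 counts in every well of most groups. MYOG had 1.26, 1.53 and 1.68 CPM in the day 90 wells, and all 6 markers together came to between 0.838 and 8.07 CPM. In these bulk samples a lower share of a cell type and less RNA per cell cannot be told apart.

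Onset was defined as the first day on which every well stood above every pluripotent and day 0 well, with a mean of at least 2 times the day 0 mean, and from which this held to day 90. By this rule HSPB1, HSPB7, HSPB8, CRYAB and BAG3 came on at day 7, HSPB3 at day 9, HSPB6 at day 14 and HSPB2 at day 30. The days depend on the rule. HSPB2 met the rule's level first at day 9 and missed it later through replicate 2 of days 11, 14 and 20 alone. On TPM, CRYAB and BAG3 came on at day 9 and HSPB1 at day 11. With 3 times the day 0 mean required, HSPB1 and CRYAB came on at day 9 and BAG3 at day 11. The first day with a mean of at least 50% of the highest came in another order: day 11 for HSPB2, day 14 for BAG3, day 20 for HSPB8, day 30 for HSPB1, HSPB6 and HSPB7, and day 90 for HSPB3 and CRYAB.

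Some steps between neighbouring times involved several of the genes at once. From day 0 to day 1, 4 of the 8 (HSPB1, HSPB2, HSPB8 and CRYAB) had every well below every well of the earlier time, as had 29.4% of all genes tested. From day 5 to day 7, 5 (HSPB1, HSPB2, HSPB7, HSPB8 and CRYAB) had every well above, as had 6.92% of all genes. From day 20 to day 30, 4 (HSPB1, HSPB3, HSPB7 and CRYAB) had every well above, against 4.22%, and from day 30 to day 90, 3 (HSPB2, HSPB3 and CRYAB), against 7.68%. On TPM the genes that separated were the same in the first pair of steps, HSPB3 and CRYAB alone from day 20 to day 30, and HSPB2 alone from day 30 to day 90. Since the genes were chosen by these levels, the counts are a description. Groups of 3 wells separate more easily than groups of 5.

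**Figure D1:**
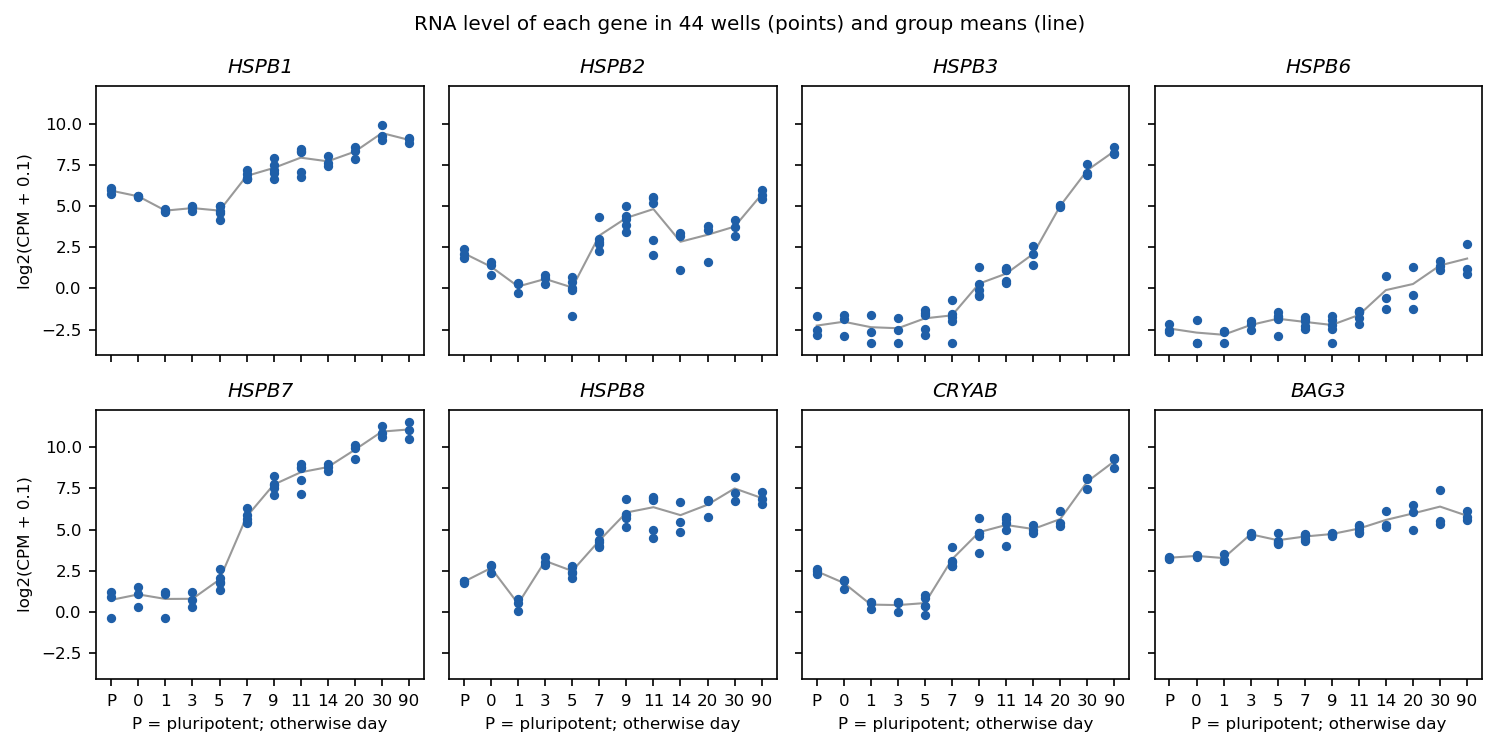
Level of each of the 8 genes as log2(CPM + 0.1) (vertical axis) in the pluripotent group (P) and at each sampled day (horizontal axis, not to scale in time). Each point is 1 of 44 wells and the line joins group means, with HSPB7 and HSPB3 among the widest ranges and BAG3 between 8.56 and 166 CPM.

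HSPB7, a muscle chaperone that acts on actin and titin filaments, had the steepest early course. It stood between 0.674 and 2.83 CPM in all 12 wells from the pluripotent state to day 3, and at 2.40, 3.47, 3.25, 4.09 and 5.91 CPM in the day 5 wells. At day 7 the wells had 44.4, 79.1, 43.0, 50.4 and 58.8 CPM. Every day 7 well thus lay above every day 5 well, with no overlap. At day 9 the range was 138 to 309 CPM with a median of 210 CPM, and at day 20 the wells had 998, 1133 and 628 CPM. HSPB7 reached 1572, 1826 and 2525 CPM at day 30 and 1454, 2965 and 2068 CPM at day 90, and the ranges of these last 2 times overlapped. The highest day 90 well, replicate 4, was also the highest in the cardiac myosin gene MYH7, at 36479 CPM against 4301 and 8055 CPM. Of the other cardiomyocyte markers, TNNT2, MYL7, MYBPC3 and TNNI1 were highest in that well too. MYH6 (904 against 1685 and 1879 CPM) and TNNI3 (269 against 373 and 442 CPM) were lowest there.

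The low early HSPB7 values differed by sequencing lane. Wells of the pluripotent state to day 3 had 0.674 to 1.15 CPM in lane 1 and 1.56 to 2.83 CPM in the other 4 lanes. Lane 1 as a whole held 189 HSPB7 counts per 1e6 counts, and the others 306 to 453. The part of reads assigned to the wrong library was not tested.

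HSPB3, which forms complexes with HSPB2 in muscle, came on later and had its highest level at the last time. It had 0 to 14 counts in each of the 22 wells through day 7, at most 0.503 CPM. At day 9 the wells had 1.10, 2.35, 0.640, 0.669 and 0.846 CPM, all above the day 7 wells, on 17 to 55 counts each. On TPM, day 7 (0 to 0.39) and day 9 (0.36 to 1.25) overlapped. The 3 wells of day 14 had 2.61, 5.75 and 4.12 CPM, those of day 20 had 31.04, 31.7 and 33.5 CPM, those of day 30 had 117, 185 and 130 CPM and those of day 90 had 297, 282 and 382 CPM. From day 14 on, each group lay wholly above the one before it on CPM. On TPM, day 30 (70.1, 182 and 152) and day 90 (135, 166 and 161) overlapped. On CPM the day 20 wells were the closest to each other of these groups, although they included the shallowest library and integrity numbers from 8.0 to 9.3. On TPM they had 24.2, 42.9 and 29.1, the highest in that shallowest library, replicate 2. As for HSPB7, early values were lowest in lane 1, at 0 to 0.0402 CPM, and reached 0.233 CPM in lane 4.

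HSPB6, a phosphorylated chaperone of smooth and cardiac muscle, was the scarcest. No well had more than 8 counts before day 14. The day 14 wells had 1.61, 0.323 and 0.562 CPM and those of day 20 had 0.652, 2.33 and 0.329 CPM. The day 30 wells had 3.10, 2.03 and 2.45 CPM, and those of day 90 had 2.15, 6.33 and 1.74 CPM. From day 14 to day 90 each time overlapped with the next, and the day 14 and day 20 values rest on 9 to 17 counts. An antisense gene lies over HSPB6, and so its few reads are uncertain in strand.

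CRYAB, or alpha-B-crystallin, holds desmin and titin in stressed muscle. In the pluripotent wells it had 4.90, 5.54 and 5.94 CPM, and then 2.55, 3.53 and 3.83 CPM at day 0 and 1.35, 1.06 and 1.40 CPM at day 1. These 3 groups did not overlap, each lying below the one before. It stayed between 0.774 and 1.93 CPM through day 5. At day 7 the wells had 8.07, 15.4, 6.82, 6.95 and 8.29 CPM, all above the pluripotent wells. The mean was 28.7 ± 14.2 CPM (SD, n = 5) at day 9 and 49.9 ± 16.8 CPM (SD, n = 3) at day 20. A second steep section followed, with 286, 264 and 176 CPM at day 30 and 420, 623 and 664 CPM at day 90. Neither group overlapped with the one before it on CPM. On TPM, day 30 (156, 249 and 188) and day 90 (183, 348 and 266) overlapped.

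HSPB2, a muscle chaperone that binds the myotonic dystrophy kinase, is the head-to-head neighbour of CRYAB on chromosome 11. HSPB2 lies at 111912242 to 111914093 on the plus strand, inside the annotated span of CRYAB on the minus strand (111908565 to 111923722, GENCODE 29, GRCh38). A read-through gene, HSPB2-C11orf52, covers part of it on the same strand. Reads of HSPB2 and the read-through could be split either way by the authors' estimate, and HSPB2 values are uncertain for that reason.

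HSPB2 shared the early course of CRYAB but not the late one. It had 3.50, 5.15 and 4.16 CPM in the pluripotent wells and between 0.214 and 1.64 CPM from day 1 to day 5. At day 9 it had 20.6, 32.3, 10.5, 14.4 and 18.5 CPM, every well above the pluripotent ones. At day 11 it had 3.97 to 47.0 CPM, with replicates 5, 6 and 7 above every day 9 well. Its means were then lower. The wells had 2.11, 8.80 and 10.1 CPM at day 14 and 11.7, 2.87 and 13.7 CPM at day 20. In each of these times 1 well lay under the highest pluripotent well. Days 14 and 20 both overlapped with day 11, and day 20 also with day 9. At day 90 HSPB2 had 51.1, 42.2 and 62.6 CPM, all above every day 30 well. The lowest wells of days 14 and 20 were replicate 2 of each, with 21 HSPB2 counts, integrity numbers of 7.4 and 8.0, and the smallest libraries of their groups. In these wells the read-through gene held 64 and 90 counts. In the other wells of day 14 it held 219 and 221 counts beside 245 and 162 of HSPB2. In those of day 20 it held 361 and 352 beside 306 and 375. At day 20 the read-through had 12.3 CPM in replicate 2 and 13.9 and 12.9 CPM in the others. The parts of RNA quality and of the read split in these values were not tested.

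Per length, the ratio of CRYAB to HSPB2 TPM within a well does not depend on library scaling. Its mean was 2.24 ± 0.277 (SD, n = 3) in pluripotent wells and 2.88 ± 0.596 (SD, n = 5) at day 9. Day 14 had 13.9 ± 12.8 and day 20 had 13.4 ± 10.1, and the ratio came to 34.8 ± 16.5 for day 30 and 20.3 ± 5.86 for day 90 (SD, n = 3 each). The day 14 and day 20 means rest on replicate 2 of each, at 28.6 and 24.7 with 21 HSPB2 counts in each well. Without it, an alternative chosen after seeing the data, they were 6.50 and 7.71, within the range of the day 11 wells. All day 30 and day 90 wells, from 15.0 to 53.6, lay above all wells up to day 11, the highest of which was 8.80. That highest early value was a day 5 well with 5 HSPB2 counts. The ratio of 53.6 was day 30 replicate 10, with 115 HSPB2 counts and 349 of the read-through. The other day 30 wells had 435 and 288 HSPB2 counts and 319 and 267 of the read-through.

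**Figure D2:**
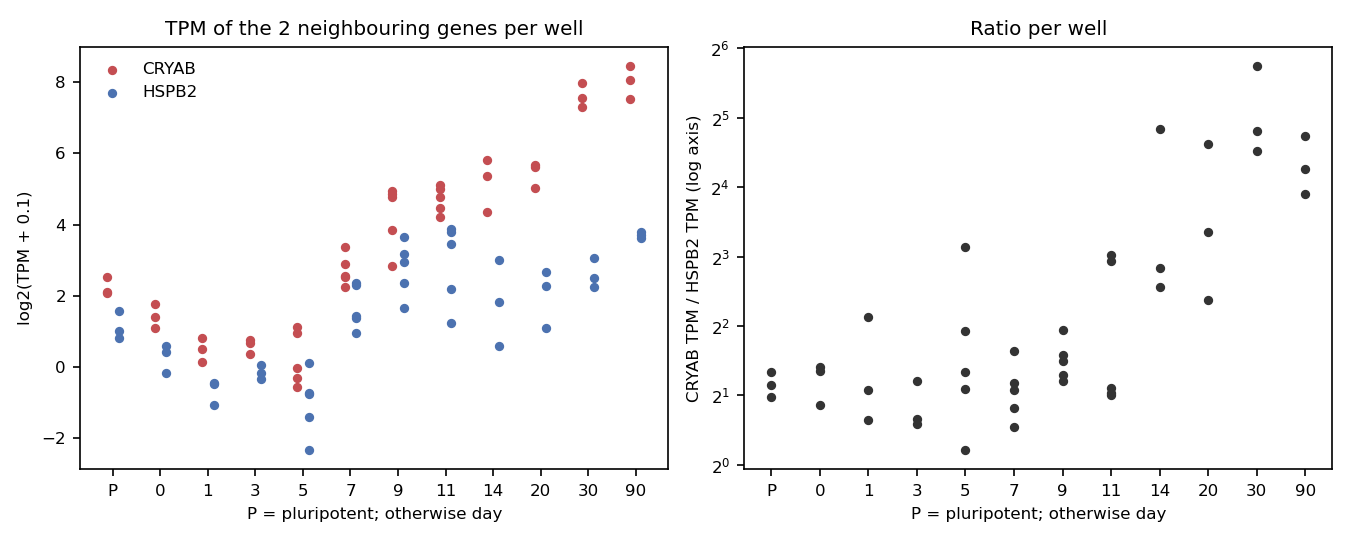
Left, log2(TPM + 0.1) of CRYAB (red) and HSPB2 (blue) in each well by day, with P the pluripotent group. Right, the ratio of CRYAB TPM to HSPB2 TPM per well on a log axis with base 2, where the day 30 and day 90 wells lie at 15.0 or more.

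The 5 wells of day 11 fell into 2 sets. HSPB2 had 7.39 and 3.97 CPM in replicates 1 and 2 and 47.0, 44.7 and 36.8 CPM in replicates 5, 6 and 7. HSPB8 had 31.2 and 22.2 CPM against 124, 113 and 120 CPM, and HSPB1 had 136 and 110 CPM against 345, 308 and 319 CPM. HSPB7 and CRYAB were split in the same order on CPM, and BAG3 had 29.4 and 28.3 CPM against 39.3, 33.2 and 36.5 CPM. On TPM the split held for HSPB1, HSPB2 and HSPB8 but not for HSPB7 (114 and 59.7 against 91.8, 103 and 107) or CRYAB (34.1 and 18.5 against 27.4, 31.6 and 22.0). BAG3 was the other way round on TPM, with 9.05 and 8.35 against 5.86, 5.65 and 5.41. Within a well the CRYAB to HSPB2 ratio was 7.67 and 8.13 in replicates 1 and 2 and between 2.00 and 2.16 in the other 3. Integrity numbers were 8.6 and 8.0 in the first pair and 9.2 to 9.5 in the others. AFP, the fetal liver and yolk sac secreted protein, had 3890 and 7287 CPM in the first pair and 80.3, 97.0 and 92.9 CPM in the others, while the troponin TNNT2 had 1011 and 648 CPM against 1639, 1630 and 1645 CPM. The labels name no difference between these wells, and the part of other cell types or RNA quality in the split was not tested.

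HSPB1, or HSP27, a widely present chaperone that binds actin and filamin, was already abundant in pluripotent cells. Those wells had 66.9, 62.1 and 53.3 CPM, the day 0 wells 49.6, 46.4 and 47.6 CPM and the day 1 wells 25.7, 28.3 and 24.6 CPM, with no overlap between these groups on CPM. It lay between 18.0 and 32.2 CPM at days 3 and 5. At day 7 it had 121, 146, 102, 97.6 and 97.9 CPM, all above the pluripotent wells. The mean was 314 ± 75.9 CPM (SD, n = 3) at day 20. The day 30 wells had 512, 595 and 952 CPM and the day 90 wells 451, 535 and 557 CPM, which overlap. On TPM the pluripotent wells had 73.4, 67.9 and 37.0 and the day 7 wells 58.3 to 93.7, so on that scale day 7 and the pluripotent state overlapped. So did the pluripotent and day 0 wells, the latter at 42.5 to 47.5 TPM.

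HSPB8, the partner of BAG3 in filamin turnover, had its lowest level at day 1. It had 3.62, 3.58 and 3.28 CPM in the pluripotent wells, 7.08, 6.72 and 5.04 CPM at day 0, 1.38, 0.932 and 1.65 CPM at day 1 and 7.27, 10.2 and 7.96 CPM at day 3. None of these 4 groups overlapped with its neighbour in time. Day 7 had 15.6 to 29.3 CPM, and day 9 had 35.7 to 117 CPM. From then on the groups overlapped with their neighbours in time, up to 106, 149 and 287 CPM at day 30 and 94.6, 154 and 115 CPM at day 90.

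BAG3 first met the level of the onset rule at day 3, before any of the other 7 genes, and missed it once more at day 5, when its mean was under 2 times that of day 0. It had 10.2, 9.25 and 9.77 CPM in pluripotent wells, 10.9, 10.1 and 10.5 CPM at day 0 and 27.0, 27.7 and 24.0 CPM at day 3. On CPM it then stayed near that level, at 17.6 to 27.7 CPM at day 5 and 24.8 to 28.2 CPM at day 9. On TPM, every day 5 well (3.36 to 6.21) lay below every day 3 well (7.41 to 7.90). The late groups were the most uneven, with 39.6, 35.6 and 68.9 CPM at day 14, 66.7, 91.6 and 31.1 CPM at day 20 and 45.6, 40.8 and 166 CPM at day 30. At day 90 the wells had 47.8, 69.0 and 54.8 CPM, all above the day 11 wells on that scale. On TPM, day 90 (5.92, 10.6 and 6.15) and day 11 (5.41 to 9.05) overlapped.

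The uneven late BAG3 wells were set beside heat-inducible chaperones, the following 3 of which were picked after their values were seen. At day 30, replicate 3 had 166 CPM of BAG3, 376 CPM of HSPA1A (the inducible HSP70), 193 CPM of HSPH1 (an HSP70 exchange factor) and 134 CPM of DNAJB1 (an HSP40). The other 2 wells had 122 and 89.9 CPM of HSPA1A, 88.1 and 52.2 CPM of HSPH1 and 55.5 and 35.7 CPM of DNAJB1. The same replicate held 10240 CPM of filamin C (FLNC), the client of the BAG3 complex, against 3401 and 618 CPM, and was the highest of its group for HSPB1, HSPB7 and HSPB8. It was the lowest of its group for CRYAB, at 176 CPM against 286 and 264 CPM. Of the whole list of 10 heat-inducible chaperones, 7 were highest in this well and 2, HSPD1 and HSPA4L, were lowest. At day 14, replicate 6 was the highest for BAG3 and for all 3 chaperones, with 362, 377 and 153 CPM, and 9 of the list of 10 were highest there. At day 20 the orders differed, since BAG3 was highest in replicate 2 and the 3 chaperones in replicate 1, with 266, 263 and 168 CPM.

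**Figure D3:**
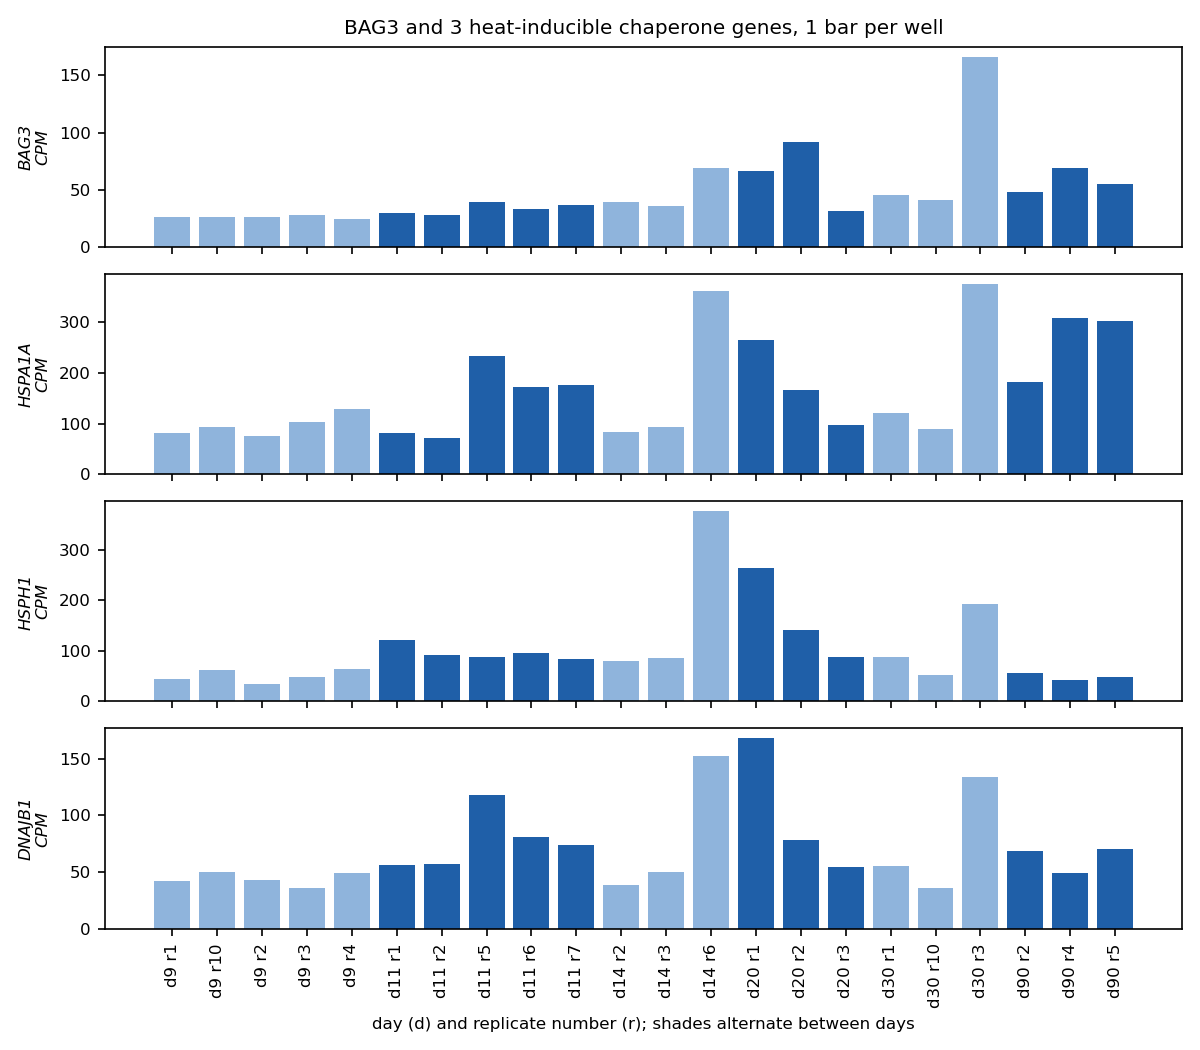
CPM of BAG3 and of the heat-inducible chaperone genes HSPA1A, HSPH1 and DNAJB1 (1 panel each, vertical axis from 0), with 1 bar per well from day 9 to day 90. Day 14 replicate 6 and day 30 replicate 3 are the highest wells of their days in all 4 panels, with BAG3 at 68.9 and 166 CPM.

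Per length, the make-up of the family turned over. The summed TPM of the 8 genes was 70.5 ± 21.1 in pluripotent wells (SD, n = 3), 32.4 ± 4.41 at day 5 and 207 ± 89.4 at day 9 (SD, n = 5 each), 1689 ± 818 at day 30 and 1061 ± 345 at day 90 (SD, n = 3 each). HSPB1 made up 83.6% ± 1.86 of the sum at day 0 (SD, n = 3), 47.7% ± 1.45 at day 9 (SD, n = 5) and 19.9% ± 2.18 at day 90 (SD, n = 3). HSPB7 went the other way, from 0.940% ± 0.365 at day 0 to 28.4% ± 1.49 at day 9, 41.4% ± 1.49 at day 30 and 35.9% ± 5.89 at day 90. HSPB7 was thus ahead of HSPB1 in mean share at day 30, with 41.4% against 32.1%.

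The shares of CRYAB and HSPB3 were higher at day 90 than at day 30, behind that of HSPB7. CRYAB held 10.1% ± 1.71 at day 9, 13.4% ± 5.43 at day 30 and 25.1% ± 1.78 at day 90. HSPB3 held 0.382% ± 0.107 at day 9, 8.30% ± 2.22 at day 30 and 15.2% ± 3.24 at day 90. HSPB8 was at its highest of these times at day 9, with 7.07% ± 1.04, and at 1.74% ± 0.220 at day 90. BAG3 held 15.1% ± 3.47 at day 5, when the sum was lowest, and 0.712% ± 0.0759 at day 90. HSPB2 made up 1.31% ± 0.356 and HSPB6 0.0766% ± 0.0512 of the sum at day 90. By mean TPM the order at day 90 was HSPB7, CRYAB, HSPB1, HSPB3, HSPB8, HSPB2, BAG3 and HSPB6. In that order HSPB7 (245 to 615 TPM), CRYAB (183 to 348 TPM) and HSPB1 (170 to 257 TPM) overlapped with their neighbours, as did HSPB8 (13.2 to 28.2 TPM) and HSPB2 (12.2 to 13.8 TPM). The other neighbours in the order did not overlap.

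**Figure D4:**
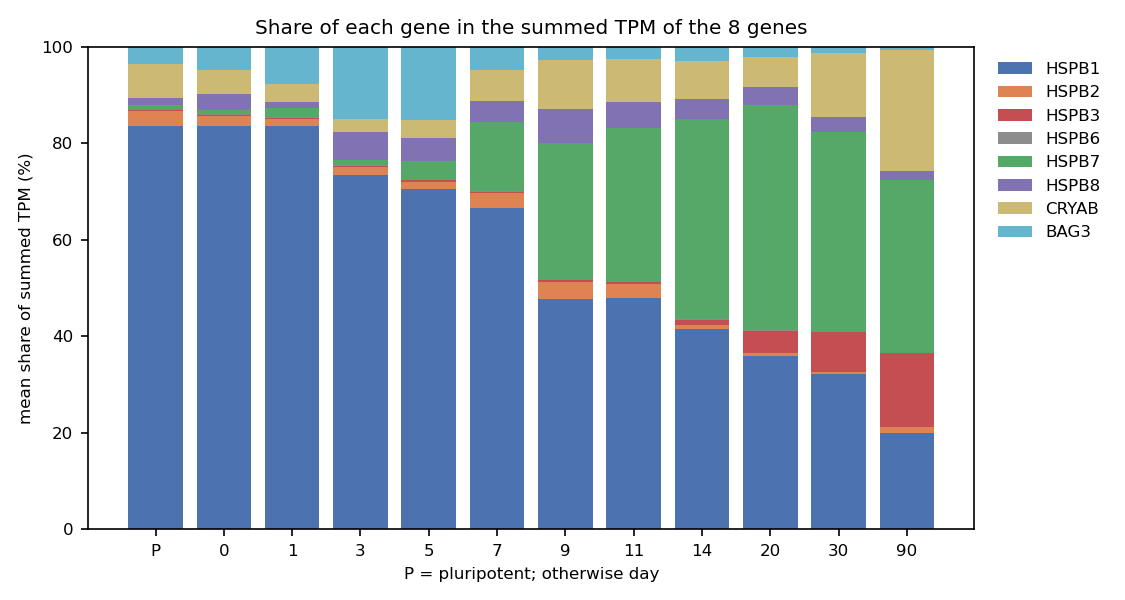
Mean share of each gene in the summed TPM of the 8 genes (vertical axis, percent, from 0) in the pluripotent group (P) and at each day. HSPB1 is the largest segment up to day 11 and HSPB7 is ahead of it at days 20, 30 and 90. CRYAB and HSPB3 reach 25.1% and 15.2% at day 90.

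Fold changes from edgeR's quasi-likelihood fit over all 44 wells were taken along 5 steps of the course. A call needed an adjusted p under 0.05 together with a log2 fold change of 1 or more, up or down. Since the choice of the 8 genes used these levels, their calls are listed beside the share of all 22955 genes tested that was called, and nothing is read from the counts. All 8 passed the filter on low counts, HSPB6 and HSPB3 through their late groups. From the pluripotent state to day 0, 0 of the 8 were called against 2.91% of all genes. From day 0 to day 3, 2 were called against 16.6% of all genes (7.81% higher and 8.76% lower), BAG3 higher by 1.32 ± 0.33 and CRYAB lower at -1.40 ± 0.43 (log2 fold change ± SE). The CRYAB call was lost on leaving out day 0 replicate 3 (log2 fold change -1.25) or day 3 replicate 1 (-1.20), and on the log2(TPM + 1) scale (-0.57), where BAG3 at 1.28 was not called either.

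From day 3 to day 9, 6 of the 8 were called, all higher, against 21.2% of all genes in either direction and 12.3% higher. The log2 fold changes were 7.00 ± 0.51 for HSPB7, 4.52 ± 0.43 for CRYAB, 3.79 ± 0.67 for HSPB2, 3.56 ± 0.68 for HSPB3, 2.95 ± 0.48 for HSPB8 and 2.44 ± 0.31 for HSPB1. HSPB6 (-0.02 ± 0.80) and BAG3 (0.02 ± 0.29) were not called. In each of the 2 sequencing lanes that hold wells of both days, the 6 genes were higher at day 9, HSPB7 by 6.79 and 7.46 on the log2(CPM + 0.1) scale. All 6 were called again without any 1 well of either day. On the log2(TPM + 1) scale HSPB3 had 0.67 and was not called.

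From day 9 to day 20, 4 were called, all higher, against 14.5% of all genes in either direction and 9.01% higher. These were HSPB3 (4.86 ± 0.39), HSPB6 (3.09 ± 0.71), HSPB7 (2.12 ± 0.34) and BAG3 (1.25 ± 0.28). HSPB1 at 0.99 ± 0.27 lay just under the fold threshold, and CRYAB had 0.81 ± 0.32 and HSPB8 0.47 ± 0.41. HSPB2 had -0.99 ± 0.57. Within the 2 lanes shared by these days, HSPB2 was lower at day 20 in both. Without day 20 replicate 2, BAG3 had 0.88 and was not called, and on the log2(TPM + 1) scale HSPB6 had 0.67 and was not called.

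From day 20 to day 90, 4 were called, all higher, against 15.4% of all genes in either direction and 7.04% higher. They were CRYAB (3.51 ± 0.39), HSPB3 (3.32 ± 0.42), HSPB2 (2.42 ± 0.64) and HSPB7 (1.23 ± 0.40). HSPB6 had 1.76 ± 0.72, HSPB1 0.71 ± 0.31, HSPB8 0.41 ± 0.46 and BAG3 -0.14 ± 0.32. No lane holds wells of both days, so no within-lane value could be had. With lane as a covariate, estimated through the other groups, CRYAB (3.16), HSPB3 (2.93), HSPB2 (2.00) and HSPB6 (2.39) were called and HSPB7 (0.71) was not. The unit also matters most for this step: over 5029 genes of at least 10 TPM on average, the median log2 change was 0.98 lower on TPM than on TMM-scaled CPM. On TPM with limma, HSPB7 had 0.14 on the log2(TPM + 1) scale and was not called, and HSPB1 (-0.32) and HSPB8 (-0.56) were on the other side of 0. The HSPB7 call was also lost without day 20 replicate 3 (1.10) or day 90 replicate 4 (1.02). CRYAB, HSPB3 and HSPB2 were the 3 genes called on TPM too.

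**Figure D5:**
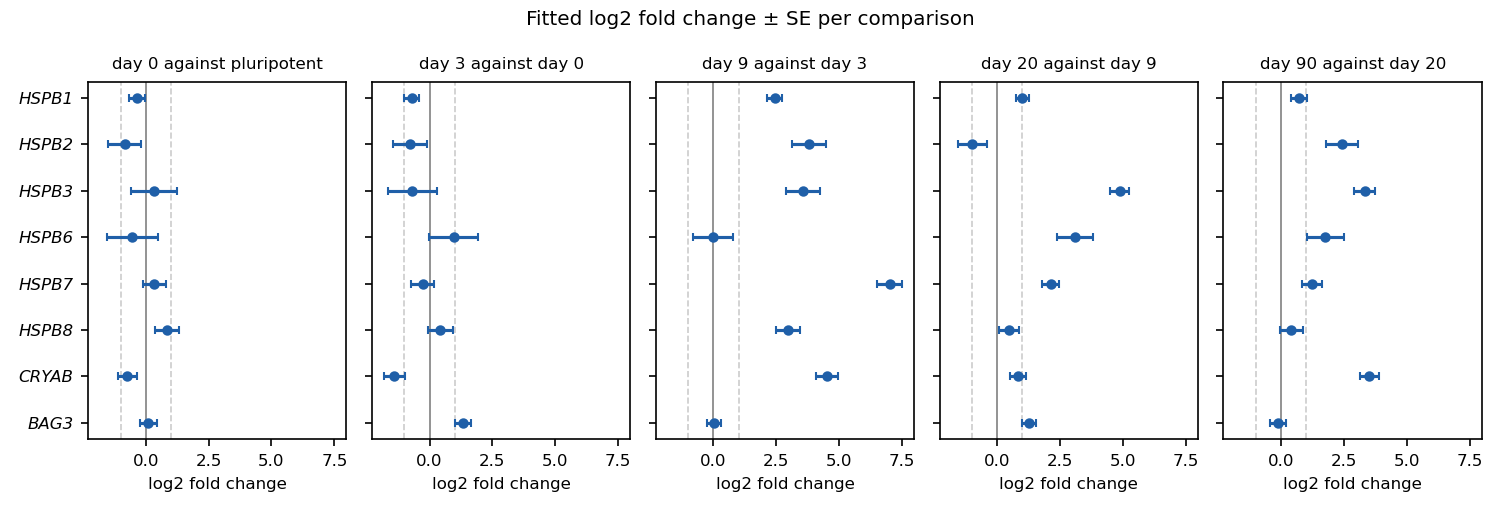
Fitted log2 fold change (point) and standard error (bar) of each gene in 5 comparisons, 1 panel each, on a common horizontal axis. The dashed lines mark the fold threshold of 1 in either direction, and the largest value is 7.00 for HSPB7 from day 3 to day 9.

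Genes of the wider chaperone system that were not among the 8 were tested in the same fit, in lists of known partners and family members. Earlier results of these data were known when the lists were chosen, so their counts, medians and p values are given as a description. The lists hold 51 genes, of which 50 passed the filter (ODF1 did not). From the pluripotent state to day 0, edgeR and DESeq2 called 0 of them, against 2.91% of all genes in edgeR. At an unadjusted p under 0.05 in edgeR, without a fold threshold, there were 17, 3 higher and 14 lower. The share of all genes at that level is not given here. From day 0 to day 3, 3 rose and 3 fell, against 16.6% of all genes called. FLNC, with the largest fold of these, rose from 58.9, 70.8 and 67.1 CPM to 618, 647 and 570 CPM, a log2 fold change of 3.22 ± 0.57 (adjusted p = 3.6e-05). The desmin gene DES and the vimentin gene VIM were the other two that rose. DNAJB6, an HSP40 of the BAG3 complex, fell by 1.54 ± 0.17 (adjusted p = 5.11e-09), as did SYNPO2, an adaptor that lets BAG3 reach the autophagosome, and HSPA4L. With limma on log2(TPM + 1), 3 rose and 0 fell.

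From day 3 to day 9, 8 of the 50 rose and 2 fell, a share near the 21.2% of all genes called. Those that fell were HSPA8, the constitutive HSP70, and HSP90AA1. Of the 10 filament and Z-disc partners 6 rose, with a list median of 2.13 against 0.02 over all genes tested. ACTN2, the Z-disc alpha-actinin, had 1.99, 2.57 and 2.11 CPM at day 3 and 167 to 514 CPM at day 9, a log2 fold change of 7.40 ± 0.59 (adjusted p = 1.94e-12). LDB3 rose by 6.49 ± 0.43 (adjusted p = 2.9e-14), CSRP3 by 6.16 ± 0.83 (adjusted p = 2.29e-07) and SYNPO2 by 3.91 ± 0.35 (adjusted p = 2.7e-11). HSPA6 also passed (3.31 ± 1.18, adjusted p = 0.0261), at no more than 1.14 CPM in any day 9 well. The 10 heat-inducible chaperones had a median of -0.28 in this step. On log2(TPM + 1), 5 genes of the lists rose and 10 fell.

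From day 9 to day 20, 12 of the 50 rose and 0 fell in edgeR and in DESeq2, while 9.01% of all genes tested rose in edgeR. At an unadjusted p under 0.05 in edgeR, without a fold threshold, 28 were higher and 5 lower. The share of all genes at that level is not given here, and nothing is read from these counts. The 12 that rose included 4 heat-inducible chaperones (HSPH1, DNAJB1, HSP90AA1 and HSPA4L), the constitutive HSP40 DNAJA1 (1.55 ± 0.30, adjusted p = 0.000258) and the cochaperone BAG2 (1.08 ± 0.20, adjusted p = 0.00011). HSPA4L rose by 2.04 ± 0.24 (adjusted p = 1.33e-07). Without day 20 replicate 1, 6 of the 50 rose. CRYAA, the lens alpha-crystallin, also passed, on 1.04, 2.60 and 0.04 CPM at day 20.

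From day 20 to day 90, 6 rose and 3 fell, a share near the 15.4% of all genes called. The heat shock factor HSF1 rose from 84.1, 54.6 and 57.9 CPM to 124, 242 and 156 CPM, by 1.40 ± 0.26 (adjusted p = 0.000107). HSF4 rose by 3.24 ± 0.80 (adjusted p = 0.00266), with 1.57, 16.4 and 2.07 CPM at day 90, the high value again in replicate 4. DES, CSRP3, MYOT and HSPA4L rose too. HSPH1 fell by 1.75 ± 0.39 (adjusted p = 0.00101), and CRYAA (adjusted p = 0.0168) and HSPB9 (adjusted p = 0.0473) fell from levels of 2.60 CPM or less. DESeq2 called 5 higher and 1 lower, and limma on log2(TPM + 1) called 1 higher and 25 lower.

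The other cell types in the wells are given by marker sums. Smooth muscle markers (4 genes) came to 84.3 to 91.1 CPM in pluripotent wells and 391 to 1353 CPM at day 90. Stroma markers (5 genes) ran from 185 to 206 CPM and from 2360 to 15018 CPM. Endoderm or liver markers (5 genes) came to 154 to 8592 CPM at day 11, 2425 to 4006 CPM at day 14 and 8.43 to 134 CPM at day 90. The endothelial sum was at most 672 CPM, at day 5, where KDR alone had a mean of 468 CPM. KDR also had a mean of 60.0 CPM in the pluripotent wells. The other endothelial markers had their highest means at other times, PECAM1 (23.8 CPM) and CDH5 (54.2 CPM) at day 9 and VWF (94.9 CPM) at day 3. HSPB1 and HSPB6 are known from smooth muscle too, and the part of these cells in the levels of the 8 genes was not tested.

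For each of the 8 genes, the protein-coding genes most like it were found by Pearson's r over the 12 group means of log2(CPM + 1), among 7640 candidates. All 12 points share the same course of differentiation, and the values are a description. HSPB7 was closest to CACNB2 (r = 0.998), a subunit of the cardiac calcium channel, to MYOM1 (0.996), a protein of the M-band, and to USP2 (0.995). HSPB3 and HSPB6 both had MYL2, the ventricular myosin light chain, as their first gene (0.989 and 0.987). CRYAB was closest to SH3BGR (0.993), MTUS1 (0.992) and FABP3 (0.990), the heart fatty acid binding protein. HSPB1 was closest to SORBS2 (0.985) and HSPB8 to MTFR1L (0.978), and BAG3 to the basement membrane collagen COL4A2 (0.980). The first gene for HSPB2 was the read-through HSPB2-C11orf52 (0.989), with which it shares sequence. Among the 8 themselves, r was highest between HSPB3 and HSPB6 (0.985) and lowest between HSPB2 and HSPB6 (0.617).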

How the data were processed

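The 8 genes and the gene lists were chosen with earlier results of these data known. Per the labels' protocols, stranded total-RNA libraries were sequenced as paired-end reads, 10 libraries to a lane. The libraries used here number 10, 9, 9, 8 and 8 in lanes 1 to 5. The submitters' processing notes name cutadapt, STAR 2.5.2b, RSEM 1.2.31 and the build hg38. The annotation, and whether counting used strand, are not given in the sources used here. The authors deposited estimated counts per gene, of which 93.8% of values were whole, TPM computed by them, and a table with the RNA integrity score, lane and replicate number of each library, which lists 1 sequencing batch for all. Identifiers were named with GENCODE 29.

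Estimated counts were rounded, filtered with filterByExpr (22955 of 60499 genes kept), scaled by TMM and fitted with edgeR 4.0.16 (R 4.3.3) using 1 mean per group over all 44 libraries. Its quasi-likelihood test gave the p values, with Benjamini-Hochberg adjustment over every gene kept. The standard errors given are the absolute log2 fold change divided by the square root of that test's F statistic. CPM, TPM shares and onset days were computed per well. The script was tested on simulated data. Alternatives were RLE scaling, DESeq2 1.42.0, other filters (none, or a CPM of 1 in 3 libraries), limma 3.58.1 on log2(TPM + 1) and log2(TPM + 0.1), only the 2 groups compared, lane as a covariate, a replicate block and leaving out each library. List genes with values are the 3 largest changes per list and called genes. No sample was left out.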

Additional observations from a re-analysis of the deposited data

Results flagged for a closer look

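In groups of 5 wells, a well far from the others by Dixon's criterion was found in 4 of 32 tests, where chance gives about 1 in 20. HSPB2 at day 7 had 19.8 CPM in replicate 10 and 4.71 to 7.73 CPM in the other 4 wells. CRYAB at day 7 had 15.4 CPM in the same well and 6.82 to 8.29 CPM in the others. That well also had 33.7 CPM of the pluripotency gene POU5F1, against 3.3 to 5.6 CPM. HSPB3 at day 9 had 2.35 CPM in replicate 10 and 0.640 to 1.10 CPM in the others. BAG3 at day 5 had 27.7 CPM in replicate 3 and 17.6 to 19.4 CPM in the others. These results come from 3 wells. All 3 had an integrity number of 9.8, and both of the wells numbered 10 were in lane 4. No cause was tested.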

How the results depend on the processing

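No call of any of the 8 genes reversed direction. Under the alternatives, their fold changes kept direction and call 559 times, lost the call 15 times and gained it 21 times, and 31 uncalled values crossed 0. Onset moved on TPM to day 11 for HSPB1 and day 9 for CRYAB and BAG3, and with 3 times the day 0 mean to day 9 for HSPB1 and CRYAB and day 11 for BAG3; RLE scaling moved none. From day 0 to day 3, the count of the 8 called was 2, with 0 on log2(TPM + 1), 1 on log2(TPM + 0.1) and 1 to 3 on leaving out 1 well. The chaperone and client genes called were 0 from the pluripotent state to day 0 and 1 when only those 2 groups were fitted. They were 6 from day 0 to day 3 and 3 on log2(TPM + 1), and 10 from day 3 to day 9 and 19 (6 higher) on log2(TPM + 0.1). From day 9 to day 20 they were 12, and 6 to 16 on leaving out 1 well. From day 20 to day 90 they were 9, with 3 when only those 2 groups were fitted, 26 on log2(TPM + 1), 27 on log2(TPM + 0.1), and 6 to 10 on leaving out 1 well. The cause of these moves was not tested.

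Over all genes, counts moved by over 1.5 times as follows. From the pluripotent state to day 0 they were 669, with 49 on log2(TPM + 1), 60 on log2(TPM + 0.1), 1592 with only the 2 groups and 252 to 395 on leaving out 1 well. From day 0 to day 3 they were 3803, with 1793 and 2417 on the 2 TPM scales. From day 9 to day 20 they were 3329, with 1145 and 1930 on the TPM scales, 2141 with only the 2 groups and 2112 without day 20 replicate 2. From day 20 to day 90 they were 3532, with 7130 on log2(TPM + 0.1) and 917 with only the 2 groups. Replicate numbers did not pair the wells: deviations of same-numbered wells correlated between -0.247 and 0.154. With a replicate block, 0, 2, 6, 6 and 4 of the 8 genes and 0, 7, 10, 13 and 8 chaperone and client genes were called along the 5 steps. Depth limits HSPB6 and early HSPB3, at 0 to 14 counts per well through day 7, and the shallow wells of days 14 and 20.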
